A study of Mus musculus with 12 samples.

Results

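Kinesins are motor proteins that use ATP to move along microtubules or, in a few families, to take their ends apart. The mitotic members separate the spindle poles, move chromosomes and close the cell at cytokinesis, and many of them are made mainly in dividing cells. The transport members carry vesicles, organelles and RNA along microtubules, most of them towards the plus end. The genes described here are the 37 rows, of 17576 in the table, whose symbol is Kif followed by a number and at most a letter from a to c. They were read as 12 mitotic, 13 transport and 12 other kinesins. The kinesins named Kifc, together with Cenpe, fall outside that naming rule and were kept apart.

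The cells were C18-4, which is a mouse line of spermatogonial stem cell origin, with the strain given as IRC mouse. The groups of 3 libraries each were 8276OV (cells given a virus for overexpression of the long noncoding RNA lncRNA8276), 8276KD (a virus for its inhibition), 5NC and 3NC. The labels do not spell out 5NC and 3NC. The design text puts 5NC beside overexpression and 3NC beside knockdown, so each was read as the control of that arm, and each manipulation was also set against the other control. No source used here names the vector or its promoter. None says whether the 3 libraries of a group are separate cultures, so every p-value rests on a spread that may be technical only.

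The level of lncRNA8276 was not analysed here, so it gives no check of the labels. Values were read as FPKM, in which fragments are divided by transcript length and by sequencing depth. Column sums ran from 533099 to 561940, with 10929 to 11165 genes at 1 or more per library. The smallest values above 0 gave an approximate depth of 11.2 to 13.2 M fragments per library, on the assumption that they stand for 1 fragment. Of 11 germ cell markers measured, 9 stayed below 1 in all 12 libraries, among them Gfra1 (at most 0.17) and Ddx4 (at most 0.03), and of the germ cell list only Etv5 reached 1 in every library. Of the Sertoli cell list, Wt1 (49.0 to 62.8) and Gata4 (3.25 to 6.77) were present and Sox9 stayed at or below 0.02. Markers of Leydig cells, macrophages and endothelium summed to at most 2.03, 5.67 and 0.81, with Cdh5 at 0 in every library. The summed level of 6 peritubular and fibroblast markers was 157.6 to 167 in 8276OV, 76.3 to 81.0 in 8276KD, 141 to 146 in 5NC and 47.3 to 48.6 in 3NC, most of it Dcn (decorin, a matrix proteoglycan; 136 to 149, 50.2 to 54.8, 109 to 115 and 20.9 to 22.2).

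The second library of 8276KD stood apart from the others of its group in how values followed the GC content of transcripts. The second library of 8276OV had the weakest such trend of its group, whose 3 libraries were spread about evenly. Per 10 points of GC content, the deviation from the mean of all libraries moved by -0.46, -0.24 and -0.35 on the log2 scale in the 3 libraries of 8276OV and by -0.04, 0.18 and -0.0019 in those of 8276KD. It moved by 0.15 to 0.20 in 5NC and by 0.10 to 0.15 in 3NC. Values after correction for GC content, and counts without those second libraries, are given beside the main results.

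Of the 37 genes, 26 reached a value of 1 in at least 3 libraries and were tested, namely 11 mitotic, 10 transport and 5 other kinesins. All 26 stood at 1 or more in all 12 libraries, the lowest value being 1.36 for Kif24. The 11 that did not pass never exceeded 0.87, the highest value of Kif27. They were Kif2b of the mitotic class, Kif1a, Kif5a and Kif17 of the transport class, and Kif6, Kif9, Kif19a, Kif26a, Kif26b, Kif27 and Kif28. The highest mean levels over the 12 libraries belonged to Kif5b (122 FPKM), Kif20a (85.9 FPKM), Kif11 (50.1 FPKM) and Kif1c (41.4 FPKM). Among the 26 tested, the spread over libraries was widest for Kif21b, whose highest value was 2.42 times its lowest, followed by Kif18b (2.19 times), Kif7 (2.12 times) and Kif1c (1.99 times). It was narrowest for Kif2a, at 1.17 times.

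Most promoters of the tested mitotic kinesins shared a short motif that was not found in those of the tested transport kinesins. In dividing cells many genes of mitosis carry a cell cycle homology region (CHR, with the letters TTTGAA), bound by the DREAM complex and by MYB and FOXM1 complexes, near the start, often downstream of a CCAAT box. Windows from 250 bases before to 50 after the annotated start (RefSeq, GRCm38.p6) matched 30 of the 37 genes and were searched on both strands. A form of the E2F site, TTCCCGC, was searched as the last of 3 motifs, none of which contains another. The CHR stood in 9 of 10 windows of tested mitotic kinesins, in 0 of 9 windows of 8 tested transport kinesins, and in 17.9% of 32851 windows of all genes. It also stood in 1 of the 2 windows of Kif1a, a transport kinesin too low to be tested, 44 bases before the start. The CCAAT box stood in 6 of the 10 mitotic and 4 of the 9 transport windows, against 37.4% of all windows. Both motifs were in 6 of the 10 mitotic windows and in 6.95% of all windows. The E2F site was in none of the mitotic or transport windows and in 4.60% of all windows. The share of windows over all genes covers many genes that were not tested here, and a match describes letters, not binding. Some windows lie at an annotated start inside the gene's span, not at its outer end. These include Kif14 and Kif2c, whose CHR matches begin at -228 and -103, Kif3a, and the Kif1a window with the CHR. Of the tested mitotic and transport kinesins, Kif20a, Kif5b and Kif13b had no window.

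The following stretches, from 100 bases before to 28 after the start, are shown because they hold both motifs (the first 5) or lack the CHR (the last 2). They are written 5′ to 3′ along the gene, and capitals mark the CHR and the CCAAT box, which read TTCAAA for the CHR and ATTGG for the box where the match is on the opposite strand.
Kif23: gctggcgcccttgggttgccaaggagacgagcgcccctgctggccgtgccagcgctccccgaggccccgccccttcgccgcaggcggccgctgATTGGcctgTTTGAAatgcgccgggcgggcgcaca
Kif18b: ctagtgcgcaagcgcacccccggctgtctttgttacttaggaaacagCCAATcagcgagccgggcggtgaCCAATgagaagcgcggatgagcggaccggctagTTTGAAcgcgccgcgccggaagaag
Kif11: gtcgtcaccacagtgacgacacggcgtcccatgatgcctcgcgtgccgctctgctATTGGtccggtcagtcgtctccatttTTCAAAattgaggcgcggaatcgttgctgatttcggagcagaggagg
Kif4: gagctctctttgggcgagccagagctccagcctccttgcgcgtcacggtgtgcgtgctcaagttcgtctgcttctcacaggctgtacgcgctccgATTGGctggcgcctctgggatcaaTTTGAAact
Kif22: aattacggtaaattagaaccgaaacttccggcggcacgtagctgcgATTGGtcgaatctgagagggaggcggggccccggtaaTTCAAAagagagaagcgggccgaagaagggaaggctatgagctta
Kif1c: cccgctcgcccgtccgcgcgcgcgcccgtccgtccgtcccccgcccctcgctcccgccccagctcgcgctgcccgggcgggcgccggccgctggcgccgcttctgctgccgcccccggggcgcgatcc
Kif3a: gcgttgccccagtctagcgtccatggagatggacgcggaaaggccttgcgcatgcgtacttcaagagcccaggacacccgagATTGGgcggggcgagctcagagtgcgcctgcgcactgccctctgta
On GRCm38.p6 these lie at chr9:61946772-61946899 (Kif23, minus strand), chr11:102925097-102925224 (Kif18b, minus strand), chr19:37376282-37376409 (Kif11, plus strand), chrX:100625965-100626092 (Kif4, plus strand), chr7:127042393-127042520 (Kif22, minus strand), chr11:70700448-70700575 (Kif1c, plus strand) and chr11:53567269-53567396 (Kif3a, plus strand). In Kif23 the CCAAT match begins 7 bases before the start and the CHR at base 3 of the transcript. Kif18b has CCAAT at 53 and 30 bases before the start and the CHR at base 4. In Kif11 the matches begin at -45 and -19, in Kif22 at -54 and -17, and in Kif4 at -5 and 20. Of the 10 mitotic windows, only that of Kif18a held none of the 3 motifs.

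**Figure D1:**
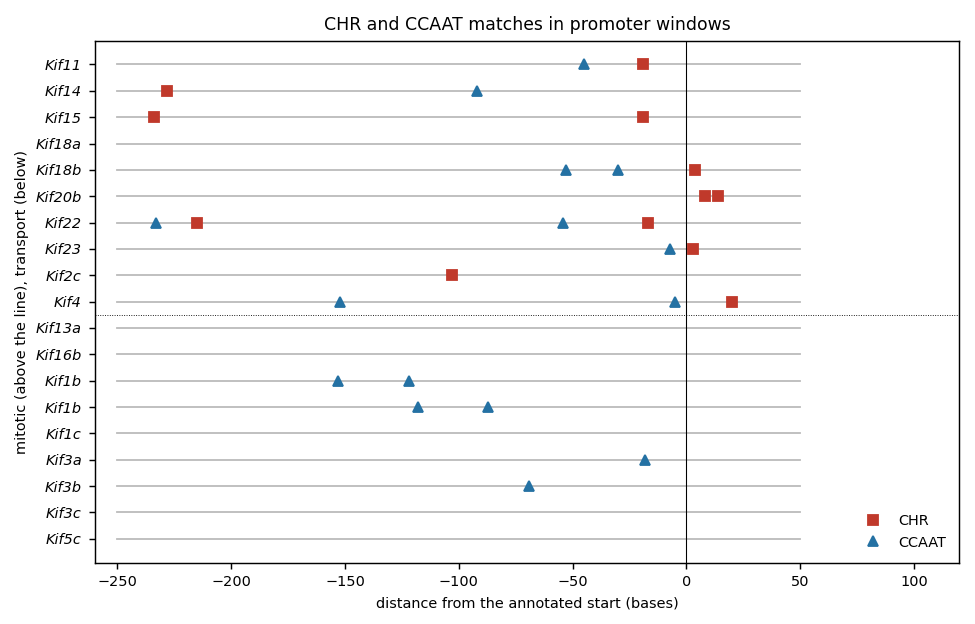
Positions of CHR (squares) and CCAAT box (triangles) matches on either strand in promoter windows of tested kinesins, by distance in bases from the annotated start; each grey line is a window from 250 bases before to 50 after it. Squares stand on 9 of the 10 mitotic windows above the dotted line and on 0 of the 9 transport windows below it, where Kif1b has 2 overlapping windows.

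The mitotic kinesins as a class were lowest in 5NC. Their summed level was 369 ± 6.31 FPKM in 8276OV, 386 ± 11.9 FPKM in 8276KD, 300 ± 3.53 FPKM in 5NC and 375 ± 2.70 FPKM in 3NC (SD, n = 3 each). The sums of 8276OV, 8276KD and 3NC lay between 365 and 397 FPKM, and those of 5NC between 297 and 304 FPKM. For 7 of the 11 tested mitotic kinesins (Kif15, Kif18a, Kif20a, Kif20b, Kif23, Kif2c and Kif4) all 3 libraries of 5NC lay below all 9 others, against 10.3% of all genes tested. This count was looked for after the values had been seen.

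Set against 5NC, 8276OV had 7 of 11 mitotic kinesins higher and 2 lower at an adjusted p under 0.05. Of all genes tested, 30.3% were called higher and 44.1% lower. The median log2 fold change was 0.30 over the mitotic kinesins and -0.088 over all genes. Fold changes followed transcript GC content, with Spearman's rho of -0.75 over the 11 mitotic kinesins and -0.79 over all genes with a GC value. After correction for GC content, 7 of the 11 were higher and 1 lower (median 0.16), against 27.8% higher and 27.0% lower of all genes. The calls of Kif11 and Kif20b were lost there (log2 fold changes -0.0043 and 0.11), Kif2c and Kif18b became higher (0.17 and 0.28), and Kif15, Kif18a, Kif20a, Kif23 and Kif4 kept their calls in every alternative, though Kif15, Kif18a and Kif23 at smaller sizes (0.13, 0.16 and 0.18 after GC correction).

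Set against 3NC, 8276KD had 1 of 11 mitotic kinesins higher (Kif11) and 1 lower (Kif18b), where 20.0% of all genes were higher and 19.5% lower. The call of Kif18b was lost without the first library of 3NC or the third of 8276KD (adjusted p = 0.067). The median was 0.066 over the mitotic kinesins and -0.0048 over all genes. Without the second library of 8276KD 3 were higher and 1 lower. Without that library and the second of 8276OV, 5 were higher and 1 lower. The shares of all genes without those second libraries are not given here. The count over all genes moved with the libraries too, from 4477 called to between 3428 and 5008 on leaving out each in turn. After correction for GC content 3 mitotic kinesins were higher (Kif11, Kif20b and Kif22) and 2 lower (Kif18b and Kif23), where 25.3% of all genes were higher and 23.1% lower.

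Between the controls, 5NC had 1 mitotic kinesin higher (Kif11) and 8 lower than 3NC, against 30.6% higher and 25.9% lower of all genes. The median was -0.24 over the mitotic kinesins and 0.022 over all genes. After correction for GC content 1 was higher and 9 lower, against 31.2% and 33.3% of all genes. Leaving out each library in turn gave 5 to 9 lower. The calls of Kif14, Kif18b, Kif20a, Kif23 and Kif2c held each time, while those of Kif22, Kif15, Kif4 and Kif11 were lost on leaving out certain libraries (adjusted p up to 0.12).

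The comparison of 8276OV with 5NC and that of 5NC with 3NC share the 5NC libraries, so a low 5NC value enters both with opposite sign. Against the other control, 3NC, 8276OV had 5 mitotic kinesins higher and 5 lower (median -0.033), and 33.5% of all genes were higher and 41.7% lower. After correction for GC content 2 were higher and 5 lower (median -0.069), against 33.4% and 33.9% of all genes, and Kif15 (-0.019) and Kif18a (-0.055) changed sign. Set against 5NC, 8276KD had 10 higher and 0 lower (median 0.33), where 24.7% of all genes were higher and 30.5% lower. The overexpression effect less the knockdown effect was called for 6 mitotic kinesins, positive for Kif15, Kif18a, Kif20a, Kif23 and Kif4 and negative for Kif22, where 24.5% of all genes had a positive and 36.2% a negative difference. That of Kif18a lost its call after GC correction (0.14, adjusted p = 0.20). With that correction the differences of Kif18b (0.44) and Kif2c (0.25) were called positive and that of Kif11 (-0.25) negative. Of the 6, only Kif20a, Kif22 and Kif23 kept their calls in every alternative.

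**Figure D2:**
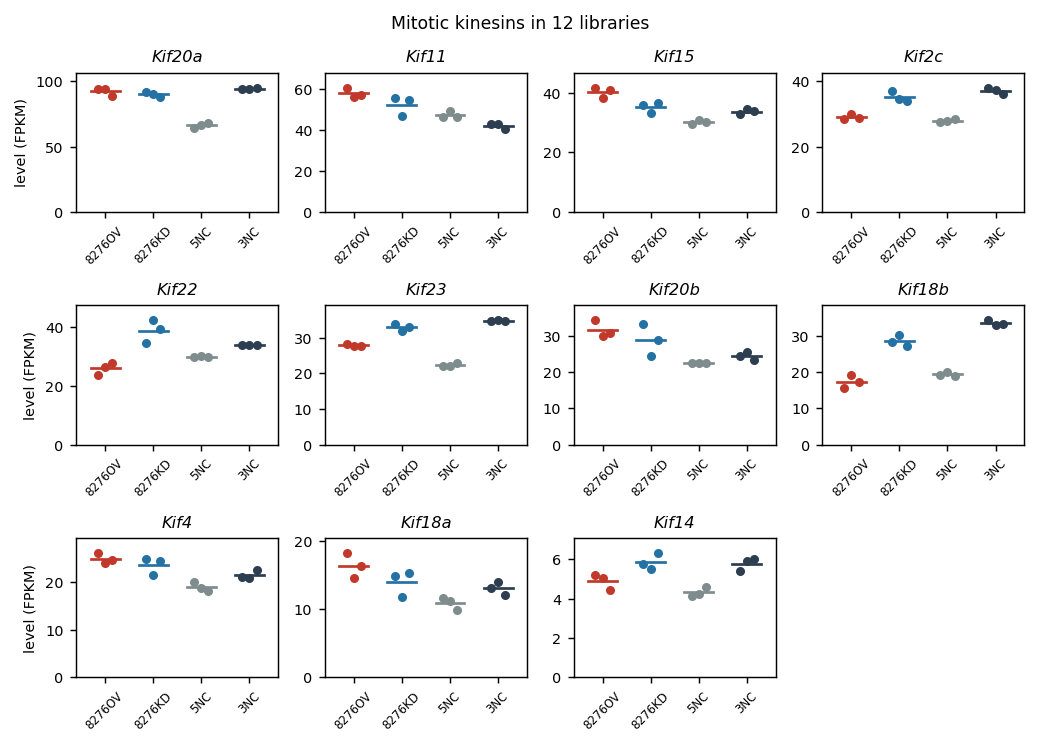
Level (FPKM, axis from 0) of the 11 tested mitotic kinesins in each library, with a point per library and a line at the mean of 3. The 5NC points of Kif20a (64.2 to 68.4 FPKM) and Kif23 (21.9 to 23.0 FPKM) lie below those of the other 3 groups.

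Among the kinesins of the central spindle and cytokinesis, Kif20a (MKLP2, which brings the Aurora B complex to the midzone) was the highest. It stood at 93.9, 94.2 and 89.0 FPKM in 8276OV and 92.3, 90.5 and 88.1 FPKM in 8276KD, against 64.2, 66.8 and 68.4 FPKM in 5NC and 94.1, 94.1 and 95.3 FPKM in 3NC. The 3 values of 5NC were apart from the other 9, which spanned 88.1 to 95.3 FPKM. Its log2 fold change was 0.47 (SE 0.040, adjusted p = 5.6e-07) in 8276OV against 5NC and 0.44 (adjusted p = 1.2e-06) in 8276KD against 5NC. It was -0.50 (adjusted p = 2.4e-07) in 5NC against 3NC. In 8276OV against 3NC it was -0.03 (95% interval -0.12 to 0.054, adjusted p = 0.47) and in 8276KD against 3NC -0.07 (95% interval -0.15 to 0.022, adjusted p = 0.22). With GC correction 8276OV against 5NC gave 0.46.

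Exons of Kif20a share 1271 bases, 31.8% of its exon length, with Cdc23 on the opposite strand, and the handling of strand is not given. Cdc23, a subunit of the anaphase-promoting complex, averaged 20.7 FPKM in 8276OV, 21.3 FPKM in 8276KD, 17.8 FPKM in 5NC and 24.4 FPKM in 3NC. It too was higher in 8276OV than in 5NC (log2 fold change 0.21, adjusted p = 0.0026). The part of such shared reads in the Kif20a values was not tested.

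Kif23 (MKLP1, the motor of centralspindlin) had 28.1, 27.6 and 27.8 FPKM in 8276OV and 33.7, 31.9 and 33.1 FPKM in 8276KD, against 21.9, 22.2 and 23.0 FPKM in 5NC and 34.6, 34.8 and 34.7 FPKM in 3NC. No 2 of the 4 groups overlapped, and the order from low to high was 5NC, 8276OV, 8276KD and 3NC. The log2 fold change was 0.30 (SE 0.042, adjusted p = 2.1e-05) in 8276OV against 5NC and -0.61 (adjusted p = 4.5e-08) in 5NC against 3NC. Against 3NC, 8276OV was lower (-0.31, adjusted p = 1.6e-05), and 8276KD differed by -0.08 (95% interval -0.17 to 0.014, adjusted p = 0.17). After GC correction 8276OV against 5NC gave 0.18 (adjusted p = 0.00036), and 8276KD against 3NC -0.09, then called (adjusted p = 0.029). Its partner in centralspindlin, Racgap1, did not keep a fixed ratio to it: the ratio of Kif23 to Racgap1 FPKM was 0.315 ± 0.015 in 8276OV, 0.281 ± 0.0149 in 8276KD, 0.230 ± 0.00944 in 5NC and 0.326 ± 0.00573 in 3NC (SD, n = 3 each). In the values as deposited Racgap1 was lower in 8276OV than in 5NC (-0.13, adjusted p = 0.011), where Kif23 was higher.

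Kif20b (MPP1, a kinesin-6 needed late in cytokinesis) stood at 34.4, 29.95 and 30.8 FPKM in 8276OV and 33.3, 24.5 and 29.0 FPKM in 8276KD, against 22.5, 22.6 and 22.6 FPKM in 5NC and 24.5, 25.5 and 23.3 FPKM in 3NC. The second library of 8276KD lay within the 3NC range and the other 2 above it. Kif20b was higher in 8276OV than in 5NC (0.47, adjusted p = 0.00024) and not called in 8276KD against 3NC (0.22, adjusted p = 0.055). With GC correction the call moved to the knockdown arm (0.16, adjusted p = 0.018, against 0.11, adjusted p = 0.074, under overexpression). Kif14, which acts with the citron kinase at the midbody, was the lowest tested mitotic member at 4.13 to 6.32 FPKM. It averaged 4.90 ± 0.405 FPKM in 8276OV and 5.85 ± 0.425 FPKM in 8276KD, against 4.32 ± 0.227 FPKM in 5NC and 5.78 ± 0.336 FPKM in 3NC (SD, n = 3 each). It was lower in 5NC than in 3NC (-0.35, adjusted p = 0.00099), and its difference between 8276OV and 5NC did not pass the test (0.15, 95% interval -0.0070 to 0.30, adjusted p = 0.078).

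Of the motors that push spindle poles apart, Kif11 (Eg5, the bipolar kinesin-5) was the 1 mitotic kinesin called higher in 5NC than in 3NC. It stood at 60.8, 56.2 and 57.2 FPKM in 8276OV and 55.7, 47.1 and 54.7 FPKM in 8276KD, against 46.5, 49.3 and 46.6 FPKM in 5NC and 43.1, 43.0 and 40.7 FPKM in 3NC. All values of 8276OV lay above those of the other 3 groups, and all of 3NC below. It was higher in both arms, by 0.29 in 8276OV against 5NC (adjusted p = 0.00079) and 0.30 in 8276KD against 3NC (adjusted p = 0.0016). The difference between the arms was -0.02 (95% interval -0.20 to 0.17). After GC correction the overexpression effect was -0.0043 (adjusted p = 0.93) and the knockdown effect 0.25 (adjusted p = 3.6e-05). The difference between the arms then became -0.25 (adjusted p = 0.00066). Kif15, the kinesin-12 that can act beside Kif11, had 41.7, 38.3 and 41.0 FPKM in 8276OV against 29.6, 31.0 and 30.0 FPKM in 5NC (0.41, adjusted p = 8.1e-06), and 36.0, 33.2 and 36.5 FPKM in 8276KD against 32.8, 34.4 and 33.7 FPKM in 3NC (0.07, adjusted p = 0.31). Its values in the knockdown arm overlapped between the groups, and its overexpression effect was larger than its knockdown effect (difference 0.34, adjusted p = 0.0011). After GC correction its overexpression effect was 0.13 (adjusted p = 0.0031) and the difference 0.12 (adjusted p = 0.048).

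The chromokinesins, which push chromosome arms away from the poles, went in opposite directions under overexpression. Kif4 averaged 24.9 ± 1.07 FPKM in 8276OV and 23.6 ± 1.87 FPKM in 8276KD, against 18.9 ± 0.965 FPKM in 5NC and 21.6 ± 0.918 FPKM in 3NC (SD, n = 3 each). Kif22 (Kid) had 23.7, 26.6 and 27.9 FPKM in 8276OV against 29.7, 30.2 and 29.8 FPKM in 5NC, and 34.8, 42.4 and 39.6 FPKM in 8276KD against 34.0, 34.1 and 34.1 FPKM in 3NC. In neither arm did its groups overlap. The log2 fold change in 8276OV against 5NC was 0.38 for Kif4 (adjusted p = 9.9e-05) and -0.19 for Kif22 (adjusted p = 0.021). After GC correction these were 0.35 and -0.17, but Kif22 lost its call without the first library of 8276OV (-0.13, adjusted p = 0.10) or the second of 5NC (adjusted p = 0.053). In 8276KD against 3NC neither passed the test (Kif4 0.12, adjusted p = 0.14; Kif22 0.18, adjusted p = 0.051), and after GC correction Kif22 did (0.18, adjusted p = 0.026). Kif4 shares 753 exon bases with Pdzd11 on the opposite strand, which was also higher in 8276OV than in 5NC (0.41, adjusted p = 5.8e-06). The part of shared reads was not tested.

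The kinesin-8 motors Kif18a and Kif18b, which restrain microtubule plus ends in the spindle and its asters, differed from each other across the groups. Kif18a stood at 18.3, 14.6 and 16.4 FPKM in 8276OV and 14.8, 11.9 and 15.3 FPKM in 8276KD, against 11.7, 11.2 and 9.92 FPKM in 5NC and 13.1, 14.0 and 12.2 FPKM in 3NC. Its 8276KD and 3NC values overlapped. Kif18b stood at 15.6, 19.1 and 17.4 FPKM in 8276OV and 28.5, 30.2 and 27.4 FPKM in 8276KD, against 19.3, 20.1 and 19.0 FPKM in 5NC and 34.3, 33.0 and 33.3 FPKM in 3NC. Here 8276OV and 5NC formed a low pair and 8276KD and 3NC a high pair. In 8276OV against 5NC, Kif18a was higher (0.54, adjusted p = 0.00023; 0.16, adjusted p = 0.042, after GC correction). Kif18b was lower (-0.16, adjusted p = 0.041), but this call was lost without any one library of 3NC or 5NC or without the first or the third of 8276OV, and it turned to 0.28 (adjusted p = 4.3e-05) after GC correction, so that both were then higher. The GC content of the longest transcript is 38.2% for Kif18a and 55.2% for Kif18b. Between 5NC and 3NC, Kif18b had the largest mitotic difference, -0.76 (SE 0.064, adjusted p = 3.8e-07), which kept its call in every alternative. The ratio of Kif18b to Kif18a FPKM was 1.08 ± 0.228 in 8276OV and 2.08 ± 0.407 in 8276KD, against 1.78 ± 0.136 in 5NC and 2.58 ± 0.195 in 3NC (SD, n = 3 each).

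Kif2c (MCAK, the kinesin-13 that takes microtubule ends apart at kinetochores) had 28.6, 30.2 and 28.8 FPKM in 8276OV and 37.0, 34.6 and 33.9 FPKM in 8276KD, against 27.5, 27.7 and 28.4 FPKM in 5NC and 38.1, 37.5 and 36.1 FPKM in 3NC. As for Kif18b, 8276OV lay near 5NC, and 8276KD near 3NC. It was lower in 5NC than in 3NC (-0.40, adjusted p = 6.9e-06) and not called in 8276OV against 5NC (0.06, 95% interval -0.036 to 0.16, adjusted p = 0.22; after GC correction 0.17, adjusted p = 0.0024). Kif2b, the other kinesin-13 placed in the mitotic class, was listed at 0 in all 12 libraries. Kif2a, a kinesin-13 of spindle poles and neurites, was placed among the other kinesins and is described with them.

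The partners of these motors at the spindle and midbody were given as a list of 34 genes, all tested. Under overexpression (8276OV against 5NC), 23 were higher and 9 lower (median 0.34), beside 30.3% and 44.1% of all genes. After GC correction 19 were higher and 4 lower (median 0.13), beside 27.8% and 27.0%. In 8276KD against 3NC, 11 were higher and 6 lower (median 0.033), beside 20.0% and 19.5%. In 5NC against 3NC, 1 was higher and 26 lower (median -0.29), beside 30.6% and 25.9%. Set against the other control, 8276KD had 27 higher and 1 lower than 5NC, beside 24.7% and 30.5%, and 8276OV had 9 higher and 12 lower than 3NC, beside 33.5% and 41.7%. The last comparison became 6 higher and 20 lower after GC correction, beside 33.4% and 33.9%.
Under overexpression the smallest p-values were those of Birc5 (survivin, of the Aurora B complex; 0.53, adjusted p = 2.6e-07), Nusap1 (a spindle microtubule binder; 0.69, adjusted p = 7.1e-07) and Ccnb1 (cyclin B1; 0.47, adjusted p = 1.8e-06). After GC correction these were 0.46, 0.39 and 0.25. Birc5 averaged 350 ± 6.82 FPKM in 8276OV and 370 ± 11.2 FPKM in 8276KD, against 243 ± 10.2 FPKM in 5NC and 332 ± 7.77 FPKM in 3NC (SD, n = 3 each). Under knockdown they were Ndc80 and Nuf2, both of the outer kinetochore (0.38, adjusted p = 0.00085; 0.29, adjusted p = 0.0011), and the checkpoint kinase Bub1b (-0.19, adjusted p = 0.0015).
Between the controls they were the kinases Aurka (-0.78, adjusted p = 3.5e-09), Aurkb (-0.70, adjusted p = 1.8e-08) and Bub1b (-0.59, adjusted p = 2.7e-08). Aurkb averaged 39.2 ± 2.06 FPKM in 8276OV and 76.4 ± 1.60 FPKM in 8276KD, against 49.6 ± 0.369 FPKM in 5NC and 81.1 ± 1.20 FPKM in 3NC (SD, n = 3 each). In bulk libraries fewer dividing cells and less RNA per dividing cell cannot be told apart. The peritubular and fibroblast marker sum was higher in 5NC than in 3NC, where the mitotic kinesins were lower, and higher in 8276KD than in 3NC, where few were called. That sum was also higher in 8276OV (157.6 to 167) than in 5NC (141 to 146), where 7 mitotic kinesins were higher and 2 lower. Dcn carried that sum. Of the 5 markers of this list that were tested, 2 were higher (Dcn and Acta2) and 3 lower in 5NC than in 3NC. In 8276KD against 3NC 1 was higher and 1 lower, and in 8276OV against 5NC 1 was higher and 3 lower. The part of such cells in these results was not tested.

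**Figure D3:**
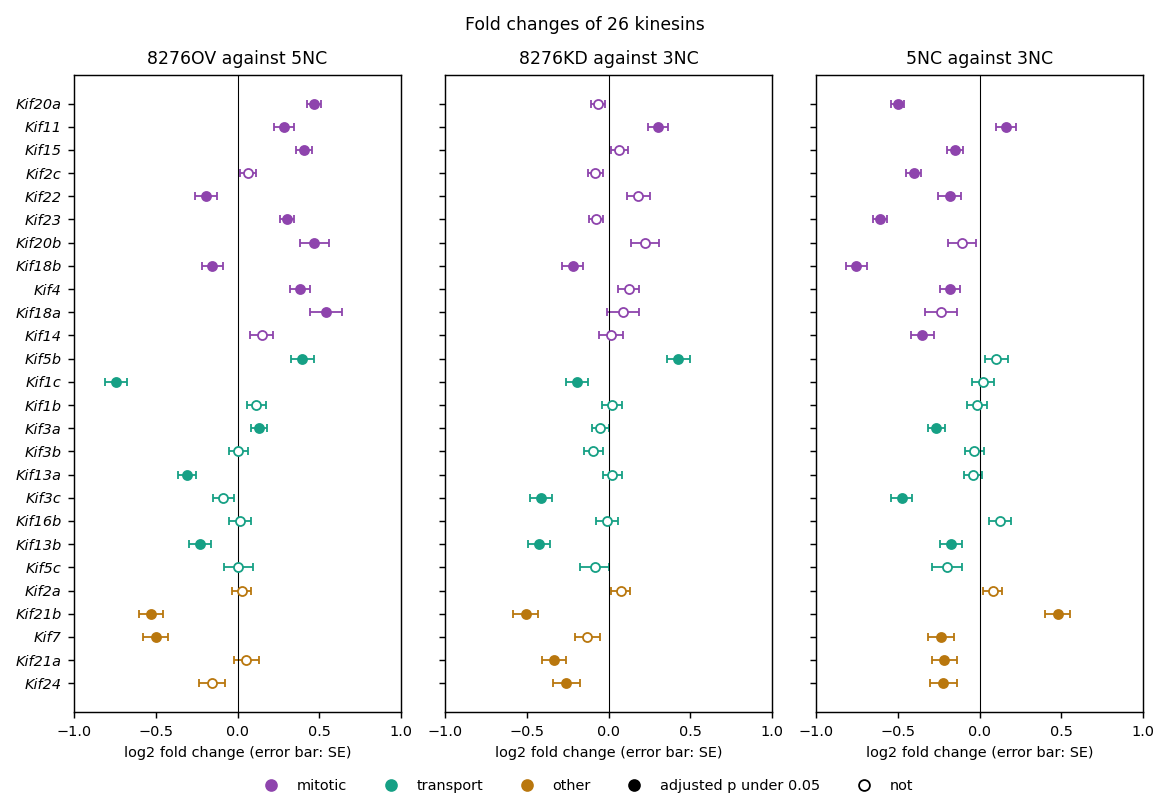
Log2 fold change (x axis, bars show the SE) of the 26 tested kinesins in 8276OV against 5NC, 8276KD against 3NC and 5NC against 3NC, grouped by class and ordered by mean level; filled points have an adjusted p under 0.05. Kif5b is higher in both manipulations (0.40 and 0.43), Kif1c and Kif21b are lower in both, and 8 mitotic kinesins are lower in 5NC than in 3NC.

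In no comparison did the transport kinesins all go the same way in the values as deposited. Their summed level was 242 ± 8.77 FPKM in 8276OV, 250 ± 16.5 FPKM in 8276KD, 227 ± 4.82 FPKM in 5NC and 226 ± 4.76 FPKM in 3NC (SD, n = 3 each, over the 10 tested). In 8276OV against 5NC, 2 were higher and 3 lower, beside 30.3% and 44.1% of all genes, and after GC correction 0 were higher and 1 lower, beside 27.8% and 27.0%. With quantile normalization 5 were higher and 2 lower there (median 0.15), where 4428 of 11360 genes were higher and 3997 lower. In 8276KD against 3NC, 1 was higher and 3 lower, and in 5NC against 3NC 0 were higher and 3 lower. Of all genes, 20.0% were higher and 19.5% lower in the knockdown comparison, and 30.6% and 25.9% in that of the controls. The medians over the transport kinesins were 0.0052, -0.068 and -0.037. Against the other control, 3NC, 8276OV had 1 higher and 5 lower (median -0.17), beside 33.5% and 41.7% of all genes. After GC correction it had 1 higher and 6 lower, beside 33.4% and 33.9%. In 8276KD against 5NC, 2 were higher and 2 lower, beside 24.7% and 30.5%. The difference between the arms was called for 4 transport kinesins, positive for Kif3a and Kif3c and negative for Kif13a and Kif1c. It was positive for 24.5% and negative for 36.2% of all genes. The calls of Kif3a and Kif13a were lost after GC correction (0.13, adjusted p = 0.097, and -0.10, adjusted p = 0.38).

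Kif5b, the heavy chain of conventional kinesin found in most cells, made up much of the class and was higher in both arms. It stood at 153, 132 and 142 FPKM in 8276OV and 145, 119 and 143 FPKM in 8276KD, against 106, 110.0 and 107 FPKM in 5NC and 99.4, 103 and 98.3 FPKM in 3NC. All 6 libraries of the manipulated cells lay above all 6 controls, the second libraries of both arms being the lowest of their groups. The log2 fold change was 0.40 (SE 0.069, adjusted p = 0.00015) in 8276OV against 5NC and 0.43 (adjusted p = 0.00031) in 8276KD against 3NC, and the difference between the arms was -0.03 (95% interval -0.24 to 0.18). After GC correction the overexpression effect was 0.08 (adjusted p = 0.064) and the knockdown effect 0.37 (adjusted p = 6.1e-07). The difference between the arms then became -0.29 (adjusted p = 0.00018). Its longest transcript has 41.1% GC. Kif5b was 58.8% ± 2.05 of the summed transport level in 8276OV and 54.2% ± 2.33 in 8276KD, against 47.5% ± 0.038 in 5NC and 44.5% ± 0.412 in 3NC (SD, n = 3 each). Of the neuronal heavy chains, Kif5c stood at 2.18 to 3.13 FPKM with no call in any of the 6 comparisons, and Kif5a did not exceed 0.10.

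Kif1c, a kinesin-3 that carries dense-core vesicles and integrins, was lower under overexpression. It had 25.4, 31.6 and 28.4 FPKM in 8276OV and 39.8, 43.1 and 41.7 FPKM in 8276KD, against 46.2, 50.5 and 47.9 FPKM in 5NC and 46.6, 47.8 and 48.2 FPKM in 3NC. The controls overlapped each other, and neither manipulated group overlapped them. The log2 fold change was -0.74 (SE 0.066, adjusted p = 6.6e-07) in 8276OV against 5NC and -0.72 (adjusted p = 4.3e-07) in 8276OV against 3NC. It was -0.19 (adjusted p = 0.034) in 8276KD against 3NC, a call lost without any one library of 3NC and without the first or the third of 8276KD (adjusted p up to 0.11). The overexpression effect differed from the knockdown effect (-0.55, adjusted p = 0.00027). After GC correction 8276OV against 5NC gave -0.35 (adjusted p = 1.2e-05), so that the call held at a smaller size. Against 3NC it was then -0.39 (adjusted p = 1.7e-06), and the difference between the arms -0.21 (adjusted p = 0.013). Of the transport kinesins called in 8276OV against 5NC, Kif1c alone kept its call in every alternative. The ratio of Kif5b to Kif1c FPKM was 5.06 ± 0.906 in 8276OV against 2.24 ± 0.0553 in 5NC, and 3.28 ± 0.466 in 8276KD against 2.11 ± 0.0632 in 3NC (SD, n = 3 each).

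Kif1b, the kinesin-3 of synaptic vesicle precursors and mitochondria, ranged from 19.9 to 24.5 FPKM with no call in the 6 comparisons. In 8276OV against 5NC its difference was 0.12 (95% interval -0.015 to 0.25) and in 8276KD against 3NC 0.02 (95% interval -0.11 to 0.15). Kif13a, which carries recycling endosomes and the mannose-6-phosphate receptor, had 7.31, 6.79 and 6.85 FPKM in 8276OV against 8.72, 8.80 and 9.15 FPKM in 5NC. These did not overlap (-0.31, adjusted p = 0.00026), but after GC correction the difference was -0.05 (adjusted p = 0.50). Kif13b (GAKIN) was lower in both arms. It averaged 2.54 ± 0.0757 FPKM in 8276OV against 3.15 ± 0.146 FPKM in 5NC, and 2.49 ± 0.139 FPKM in 8276KD against 3.70 ± 0.303 FPKM in 3NC (SD, n = 3 each). Its log2 fold changes were -0.23 (adjusted p = 0.0066) and -0.43 (adjusted p = 0.00024), and after GC correction 0.03 (adjusted p = 0.77) and -0.41 (adjusted p = 0.00025). Kif16b, a mover of early endosomes, ranged from 4.78 to 6.32 FPKM with no call.

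Kinesin-2 motors are built from Kif3a with Kif3b or Kif3c and drive intraflagellar transport, which builds cilia, among other cargoes. Kif3a had 12.2, 12.5 and 13.6 FPKM in 8276OV and 13.4, 13.5 and 13.8 FPKM in 8276KD, against 11.5, 11.7 and 11.5 FPKM in 5NC and 14.0, 14.3 and 14.0 FPKM in 3NC. As for most mitotic kinesins, its 5NC values lay below all others (-0.27 in 5NC against 3NC, adjusted p = 0.00056). It was higher in 8276OV than in 5NC (0.13, adjusted p = 0.032), a call lost without the third library of 8276OV (0.09, adjusted p = 0.16), without any one of 5NC and after GC correction (0.07, adjusted p = 0.18). Kif3b ranged from 10.9 to 13.0 FPKM with no call, its difference being 0.0047 in 8276OV against 5NC (95% interval -0.12 to 0.13) and -0.09 in 8276KD against 3NC (95% interval -0.22 to 0.034).
Kif3c, the alternative to Kif3b, had 5.29, 5.64 and 6.18 FPKM in 8276OV and 6.98, 6.18 and 6.14 FPKM in 8276KD, against 6.38, 6.09 and 5.87 FPKM in 5NC and 8.74, 9.10 and 8.87 FPKM in 3NC. The 3NC libraries lay above the other 9, which overlapped. Its log2 fold change was -0.42 (adjusted p = 0.00027) in 8276KD against 3NC and -0.48 (adjusted p = 3.7e-05) in 5NC against 3NC. The ratio of Kif3c to Kif3b was 0.469 ± 0.0543 in 8276OV and 0.556 ± 0.0651 in 8276KD, against 0.504 ± 0.0231 in 5NC and 0.716 ± 0.0184 in 3NC (SD, n = 3 each). Exons of Kif3c share 2617 bases with 1110002L01Rik on the opposite strand, which is not a row of the table, so reads of that transcript could not be set apart. Kif17, the homodimeric kinesin-2 of cilia and dendrites, did not exceed 0.33.

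**Figure D4:**
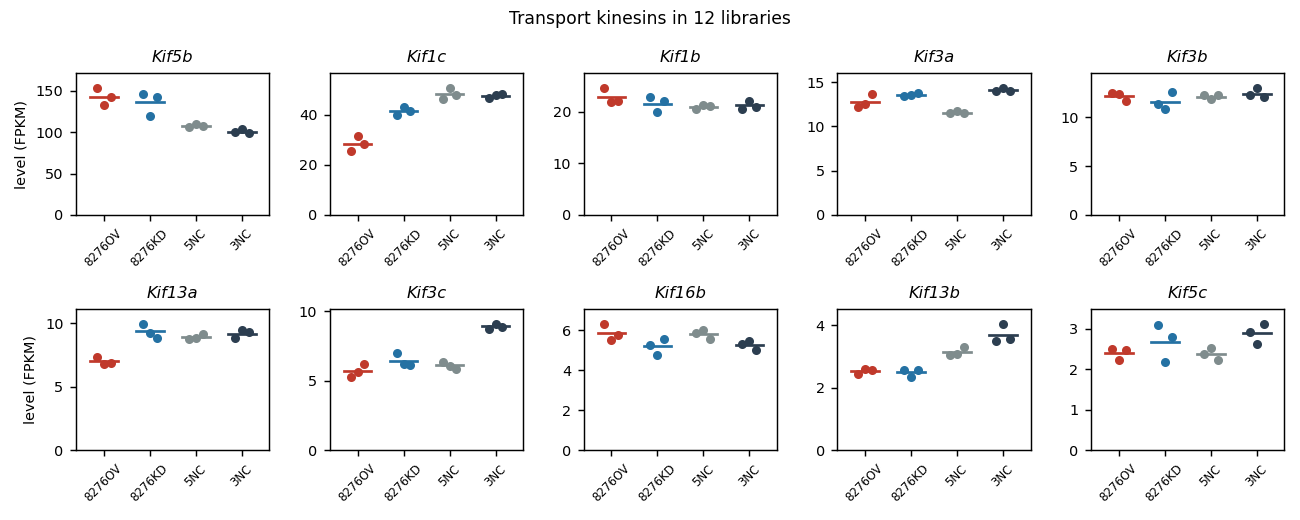
Level (FPKM, axis from 0) of the 10 tested transport kinesins in each library, with a point per library and a line at the mean of 3. Kif5b lies above 118 FPKM in all 8276OV and 8276KD libraries and at or below 110.0 FPKM in 5NC and 3NC, and Kif1c is lowest in 8276OV.

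Of 30 cargo adaptors, light chains and regulators of kinesin, 28 were tested. Under overexpression, against 5NC, 7 were higher and 14 lower (median -0.18), where 30.3% of all genes were higher and 44.1% lower. After GC correction 4 were higher and 6 lower, where all genes had 27.8% and 27.0%. In 8276KD against 3NC, 4 were higher and 8 lower, beside 20.0% and 19.5% of all genes, and in 5NC against 3NC, 10 were higher and 6 lower, beside 30.6% and 25.9%. Under overexpression the shares of adaptors called lay near those of all genes. The light chains, which hold the cargo of kinesin-1, were lower under overexpression in the values as deposited. Klc3 averaged 3.21 ± 0.559 FPKM in 8276OV against 7.49 ± 0.153 FPKM in 5NC (SD, n = 3 each; -1.02, adjusted p = 1.3e-06), and the fold change was -0.23 (adjusted p = 0.0082) after GC correction. Named after their values were seen, Klc1 (-0.60), Klc2 (-0.87) and Klc4 (-0.69) were also lower in 8276OV than in 5NC, and after GC correction these were -0.12, -0.17 and -0.051, the last with an adjusted p of 0.56.
The adaptors Trak1, which links kinesin-1 to mitochondria (-0.61, adjusted p = 8.6e-07), and Plekhm2 (SKIP, which links it to lysosomes; -0.60, adjusted p = 2.0e-06) were lower as well, but both calls were lost after GC correction (-0.09, adjusted p = 0.23; 0.08, adjusted p = 0.36). Under knockdown the smallest p-values were those of the lysosomal GTPase Arl8b (0.40, adjusted p = 0.00012), the scaffold Mapk8ip3 (-0.42, adjusted p = 0.00077) and Dennd4c (-0.35, adjusted p = 0.0010). Between the controls they were Dennd4c (-0.47, adjusted p = 4.6e-05), Arl8b (0.35, adjusted p = 0.00016) and Kidins220 (0.45, adjusted p = 0.00017). Arl8b was thus highest in 8276OV (90.6 ± 5.71 FPKM), at 69.0 ± 5.08 FPKM in 8276KD, 66.6 ± 1.36 FPKM in 5NC and 52.0 ± 0.784 FPKM in 3NC (SD, n = 3 each).

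Dynein and its activator dynactin carry cargo the opposite way. Of the 27 of their genes tested, 14 were higher and 12 lower in 8276OV against 5NC, 6 higher and 2 lower in 8276KD against 3NC, and 8 higher and 8 lower in 5NC against 3NC. The shares of all genes were 30.3% and 44.1%, 20.0% and 19.5%, and 30.6% and 25.9%. After GC correction 10 of the 27 were higher and 10 lower in 8276OV against 5NC, beside 27.8% and 27.0% of all genes. Under overexpression the smallest p-values were those of the dynactin subunit Actr1b (-0.66, adjusted p = 1.3e-07), the light chain Dynll2 (-0.55, adjusted p = 8.0e-07) and the dynactin subunit Dctn4 (0.49, adjusted p = 1.7e-06), which became -0.24, -0.21 and 0.17 after GC correction. Under knockdown they were Dctn6 (0.19), Dync1i1 (0.33) and Dynll1 (0.12), with adjusted p of 0.0071, 0.011 and 0.027. Between the controls they were the adaptor Bicd1 (-0.78), the regulator Nde1 (-0.35) and the light intermediate chain Dync1li1 (0.30).

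Of the 5 other kinesins tested, 0 were higher and 2 lower in 8276OV against 5NC, 0 higher and 3 lower in 8276KD against 3NC, and 1 higher and 3 lower in 5NC against 3NC. Of all genes, 44.1%, 19.5% and 25.9% were lower in these comparisons and 30.3%, 20.0% and 30.6% higher, and with 5 genes such counts are coarse. Kif21b, a kinesin-4 family motor that limits microtubule growth, had the widest range over the libraries. It had 4.85, 6.0 and 5.35 FPKM in 8276OV and 3.59, 3.95 and 3.44 FPKM in 8276KD, against 8.34, 8.06 and 8.27 FPKM in 5NC and 5.20, 5.67 and 6.03 FPKM in 3NC. The 5NC libraries were above and the 8276KD libraries below all others, while 8276OV and 3NC overlapped. Log2 fold changes were -0.53 in 8276OV against 5NC (adjusted p = 2.6e-05), -0.51 in 8276KD against 3NC (adjusted p = 0.00015) and 0.48 in 5NC against 3NC (adjusted p = 0.00012). Against the other control, 8276OV differed by -0.05 (adjusted p = 0.53) and 8276KD by -0.99 (adjusted p = 1.9e-07). After GC correction 8276OV against 5NC gave -0.01 (adjusted p = 0.89) and 8276KD against 3NC -0.43 (adjusted p = 1.4e-05).

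Kif7, the ciliary kinesin that regulates Hedgehog signalling, had 2.97, 3.64 and 3.30 FPKM in 8276OV against 4.96, 4.96 and 5.33 FPKM in 5NC, with no overlap (-0.50, adjusted p = 5.5e-05). Its longest transcript has 59.6% GC, the highest among the tested kinesins, and after GC correction it was higher instead (0.16, adjusted p = 0.013). In 8276KD it averaged 5.57 ± 0.642 FPKM against 6.17 ± 0.106 FPKM in 3NC (SD, n = 3 each; -0.13, adjusted p = 0.20). Kif21a averaged 3.55 ± 0.448 FPKM in 8276KD against 4.72 ± 0.127 FPKM in 3NC (-0.33, adjusted p = 0.0035), and in 8276OV it was not called against 5NC (0.05, adjusted p = 0.53). Kif24, which removes tubulin at centrioles and holds back cilia, averaged 1.66 ± 0.221 FPKM in 8276KD against 2.18 ± 0.211 FPKM in 3NC (-0.26, adjusted p = 0.022), a call lost without the second library of 8276KD or the first or the third of 3NC.
Kif2a, the kinesin-13 of spindle poles and neurites, was nearly level, at 27.9 to 32.5 FPKM. Its log2 fold change was 0.03 (95% interval -0.099 to 0.15) in 8276OV against 5NC, but its transcript has 38.6% GC, and after GC correction it was lower (-0.35, adjusted p = 1.2e-06). Among the genes below the threshold for testing, Kif9 of motile cilia had 0.83, 0.81 and 0.83 FPKM in 8276OV against 0.61, 0.72 and 0.61 FPKM in 5NC, and 0.46, 0.50 and 0.44 FPKM in 8276KD against 0.35, 0.44 and 0.51 FPKM in 3NC. The first pair did not overlap and the second did.

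The kinesins and cofactors outside the naming rule, 7 genes, were all tested. In 8276OV against 5NC, 2 were higher and 5 lower, beside 30.3% and 44.1% of all genes, and after GC correction 2 higher and 2 lower, beside 27.8% and 27.0%. Kifc3, a minus-end motor of cell junctions, averaged 6.15 ± 0.640 FPKM in 8276OV against 13.0 ± 0.287 FPKM in 5NC (SD, n = 3 each; -0.97, adjusted p = 4.1e-07; -0.30, adjusted p = 4.8e-05, after GC correction). The spindle motor Kifc1 (-0.52, adjusted p = 2.4e-05) and the kinesin-binding protein Kif1bp (-0.34, adjusted p = 7.7e-05) followed. After GC correction the call of Kifc1 was lost (0.018, adjusted p = 0.79), and Kif1bp stood at -0.16 (adjusted p = 0.023). In 8276KD against 3NC 0 were higher and 3 lower, namely Kif1bp (-0.26), Kifc5b (-0.47) and Kifc2 (-0.36), beside 20.0% and 19.5% of all genes. Kifc1 and Kifc5b are near copies, so the counting could split their reads and both values are uncertain. In 5NC against 3NC 1 was higher and 3 lower, beside 30.6% and 25.9% of all genes: Kifc1 (-0.31) and Kifc2 (-0.41) were lower, and Kifap3, the cargo-binding subunit of kinesin-2, was higher (0.22).

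Transcript GC content ran through the overexpression results of all classes. In 8276OV against 5NC, Spearman's rho of fold change with GC content was -0.81 over the 26 tested kinesins, -0.89 over the 10 transport kinesins and -0.79 over 11197 genes, as a description across genes that share the same 6 libraries. Of the 16 kinesins called in that comparison, 4 changed sign after correction (Kif11, Kif13b, Kif18b and Kif7). In 8276KD against 3NC, rho was -0.71 over the 26 kinesins and -0.22 over all genes, and after correction it was -0.58 over the kinesins. The GC trend of 8276OV cannot be told apart from the virus given. All its libraries moved lower with GC content than any library of the other groups. Within groups the trend varied as well. The second library of 8276KD (0.18 per 10 points of GC content) lay within the 5NC range (0.15 to 0.20). The others of 8276KD stood at -0.04 and -0.0019.

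**Figure D5:**
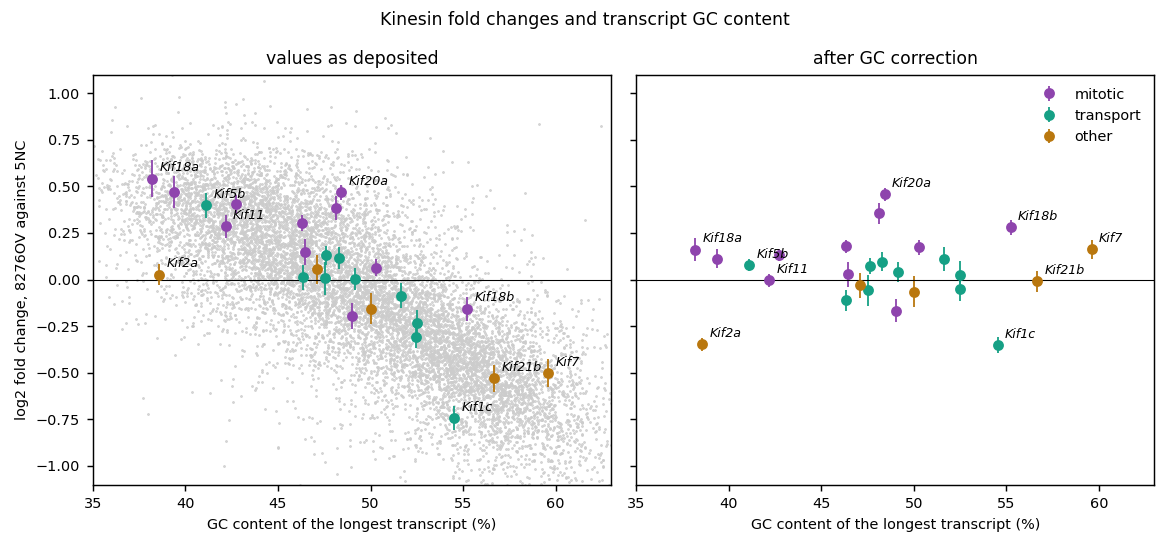
Log2 fold change in 8276OV against 5NC of the 26 tested kinesins (coloured points, bars show the SE) and of all tested genes (grey, left panel, genes outside the axes not drawn) by GC content of the longest transcript. Points slope downward in the values as deposited (rho -0.81 over the kinesins), and after correction Kif20a stays at 0.46 and Kif1c at -0.35.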

How the data were processed

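Total RNA of C18-4 cells was sequenced in 12 libraries, 3 per group as labelled. The authors deposited a table of 17576 genes with values to 2 decimals, read as FPKM from the values; no label or header names the unit, TPM remains possible, and a value of 0 can be rounding. Per the submitters' processing notes the build is mm10, and GRCm38.p6 coordinates are of the same assembly. Not given in the sources used here: aligner, quantifier and strand handling.

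Genes at 1 or more in at least 3 libraries (11360) were tested on log2(value + 1), which understates changes of low genes, with limma 3.58.1 in R 4.3.3 (all 12 libraries, a mean per group, eBayes with trend and robust). Two-sided p-values were adjusted over all genes (Benjamini-Hochberg), threshold 0.05. An exact permutation test of 3 against 3 cannot go below 0.1. For GC correction, each library's trend with GC content (longest GENCODE transcript, known for 98.6% of tested genes) was fitted by a natural spline of 5 degrees of freedom and removed. The fit was tested on simulated data.

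Members, lists and tests were chosen with earlier results of these data known. All members are accounted for; of each partner list, the 3 genes with the smallest p per comparison were named. Alternatives changed the pseudocount, filter, scaling, fit and libraries.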

Additional observations from a re-analysis of the deposited data

How the results depend on the processing

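Of 86 calls on single kinesins, 50 held in every alternative, 32 lost significance in at least 1, and 7 changed sign, all under GC correction with or without the replicate block: in 8276OV against 5NC Kif11 (-0.0043), Kif13b (0.026), Kif18b (0.28) and Kif7 (0.16), in 8276OV against 3NC Kif15 (-0.019) and Kif18a (-0.055), and Kif7 in the difference between the arms (0.20). The number of kinesins called in 8276KD against 3NC was 9 and became 14 without the second libraries of 8276OV and 8276KD. Over all genes that comparison had 4477 calls, and 3428 to 5008 on leaving out each library in turn. The number called in 5NC against 3NC was 16 and became 10 with library sums made equal. Leaving out each library gave 8 to 18, the lowest without the third of 3NC. Over all genes 5NC against 3NC had 6414 calls, and 5592 to 6826 on leaving out each library. The count over all genes with library sums made equal is not given here. Leaving out each library gave 13 to 16 calls in 8276OV against 5NC, 6 to 11 in 8276KD against 3NC, 15 to 20 in 8276OV against 3NC, 14 to 17 in 8276KD against 5NC and 10 to 13 for the difference. In the same order, the calls over all 11360 genes were 7781 to 8652, 3428 to 5008 and 7949 to 8786. Those of 8276KD against 5NC and of the difference were 5425 to 6609 and 6286 to 7187. With quantile normalization, 15 kinesins were higher and 4 lower in 8276OV against 5NC, instead of 9 and 7. Of these, the mitotic kinesins had 9 higher and 0 lower. Of 11360 genes, 4428 were then higher and 3997 lower, instead of 3447 and 5005. The cause of these shifts was not tested. GC correction and removal of the second libraries or median-of-ratios scaling were chosen after the data had been seen, in an earlier report or here.

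The replicate numbers did not pair the libraries across all groups: of 18 same-numbered pairs, 2 had a correlation of deviations over 0.1, and 6 correlated best with their own number. Those 6 were all the pairs of 8276OV with 8276KD (0.47, 0.59 and 0.029) and of 5NC with 3NC (0.041, 0.088 and 0.046). Whether these groups shared a step by replicate number was not tested. With the replicate block, 16 kinesins were called in 8276OV against 5NC, 11 in 8276KD against 3NC, 16 in 5NC against 3NC, 18 in 8276OV against 3NC, 15 in 8276KD against 5NC and 11 for the difference. The counts over all genes with the block are not given here. Values with 2 decimals limit the low kinesins, whose level of 1 read is not known exactly.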
